A study of Homo sapiens with 6 samples.

Results

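Cytosolic aminoacyl-tRNA synthetases, enzymes that make amino acids and amino acid transporters were followed through 6 arrays of PC3, an established cell line from a human prostate cancer. The list names 39 genes, chosen by function but with earlier results of these data known. They are 19 tRNA synthetases, 12 enzymes and 8 transporters, out of 19775 genes named on the array. Every probe set whose annotation names only 1 of these genes was read, which gave 78 probe sets for 36 of the 39 genes, and 34 genes had a probe set whose 6-array mean reached log2 4 (17 synthetases, 10 enzymes and 7 transporters). Of the other 5, MARS1 and QARS1 were covered only by probe sets that also list another gene and GPT2 had no single-gene probe set here, while ALDH1L2 and SLC6A9 lay below log2 4 (brightest probe sets at means of 3.45 and 1.84), so no values are given for these 5. The dimmest gene kept was CBS, at 4.72. The cells received an siRNA pool against NRP-2 (neuropilin-2, a co-receptor of VEGF-C), an siRNA pool against VEGF-C (a growth factor of lymphatic vessels) or a scrambled siRNA, and RNA was taken 72 h later. Each group had 2 arrays. All cells were wild-type PC3 grown in RPMI medium with 10% serum, the NRP-2 and VEGF-C pools came from different suppliers, and each target was hit by a single pool, so an effect of losing the target cannot be told apart from an effect of the siRNA sequences. Whether the arrays of a group came from separate cultures is not said in the labels. The p-values therefore describe the spread between these samples alone, and that spread may be technical.

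Aminoacyl-tRNA synthetases join each amino acid to its tRNA for use by the ribosome. When amino acids run short or other stresses act, kinases phosphorylate the initiation factor eIF2, general translation slows and the transcription factor ATF4 is translated more. ATF4 binds C/EBP-ATF response elements in many of the genes listed here, and raises the enzymes of serine, glycine, asparagine and cysteine synthesis, the transporters that import amino acids and several cytosolic synthetases. The genes of the mitochondrial synthetases are mostly not counted among its targets.

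The targeted transcripts were lower in the cells given their siRNA. NRP2 stood at log2 3.41 and 2.81 on the NRP-2 siRNA arrays, 5.51 and 6.01 on the VEGF-C siRNA arrays, and 4.77 and 4.92 on the scrambled arrays. VEGFC stood at 11.99 and 11.67 on the NRP-2 siRNA arrays, 8.46 and 7.27 on the VEGF-C siRNA arrays, and 11.81 and 11.80 on the scrambled arrays. The medians of all probe sets were at most 3.07 on any array, so both NRP-2 arrays read NRP2 near the floor. The difference between 3' and 5' probe sets of beta-actin, a sign of RNA integrity, was 2.18 and 2.76 on the NRP-2 arrays, 2.11 and 2.28 with VEGF-C siRNA and 3.11 and 2.05 with scrambled siRNA. For GAPDH it was -0.03 and -0.07 on the NRP-2 arrays, -0.09 and -0.06 with VEGF-C siRNA and -0.0009 and -0.08 with scrambled siRNA. The mean of 29 genes of G2 and mitosis was 10.96 and 9.92 on the NRP-2 arrays, 11.13 and 10.38 after VEGF-C siRNA, and 10.23 and 8.53 in scrambled controls. As a check of the cell line, 6 of 6 epithelial genes such as KRT18 and EPCAM passed the filter, against 1 of 5 immune markers (LYZ), 2 of 6 fibroblast markers (COL1A1 and COL3A1) and 2 of 4 endothelial markers (PECAM1 and KDR). Of the luminal prostate genes read, KLK3 and TMPRSS2 passed it and KLK2 did not.

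Most of the measured members were lower with NRP-2 siRNA than with VEGF-C siRNA, in all 3 classes. The difference was below 0 for 31 of 34 genes with a median of -0.57 on the log2 scale, whereas the median of all 11131 genes tested was +0.02. Both NRP-2 arrays lay below both VEGF-C arrays for 26 of the 34, and for 22.4% of all genes. No gene passed limma's test after Benjamini-Hochberg adjustment over all genes (0 of 11131, 0 of 34 members, lowest adjusted p of a member 0.116), so 0% of the background was called. At an unadjusted p under 0.05, 20 members were lower and 0 higher, against 8.66% of all genes lower and 9.54% higher. The 20 comprised 9 synthetases, 7 enzymes and 4 transporters. The siRNA targets were not called either. Against scrambled siRNA, VEGFC was 15.4-fold lower with VEGF-C siRNA (limma's adjusted p = 0.204) and NRP2 3.34-fold lower with NRP-2 siRNA (limma's adjusted p = 0.213). The lack of a call therefore does not show that a gene was unchanged. In bulk RNA, fewer cells with a transcript and less transcript per cell cannot be told apart.

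**Figure D1:**
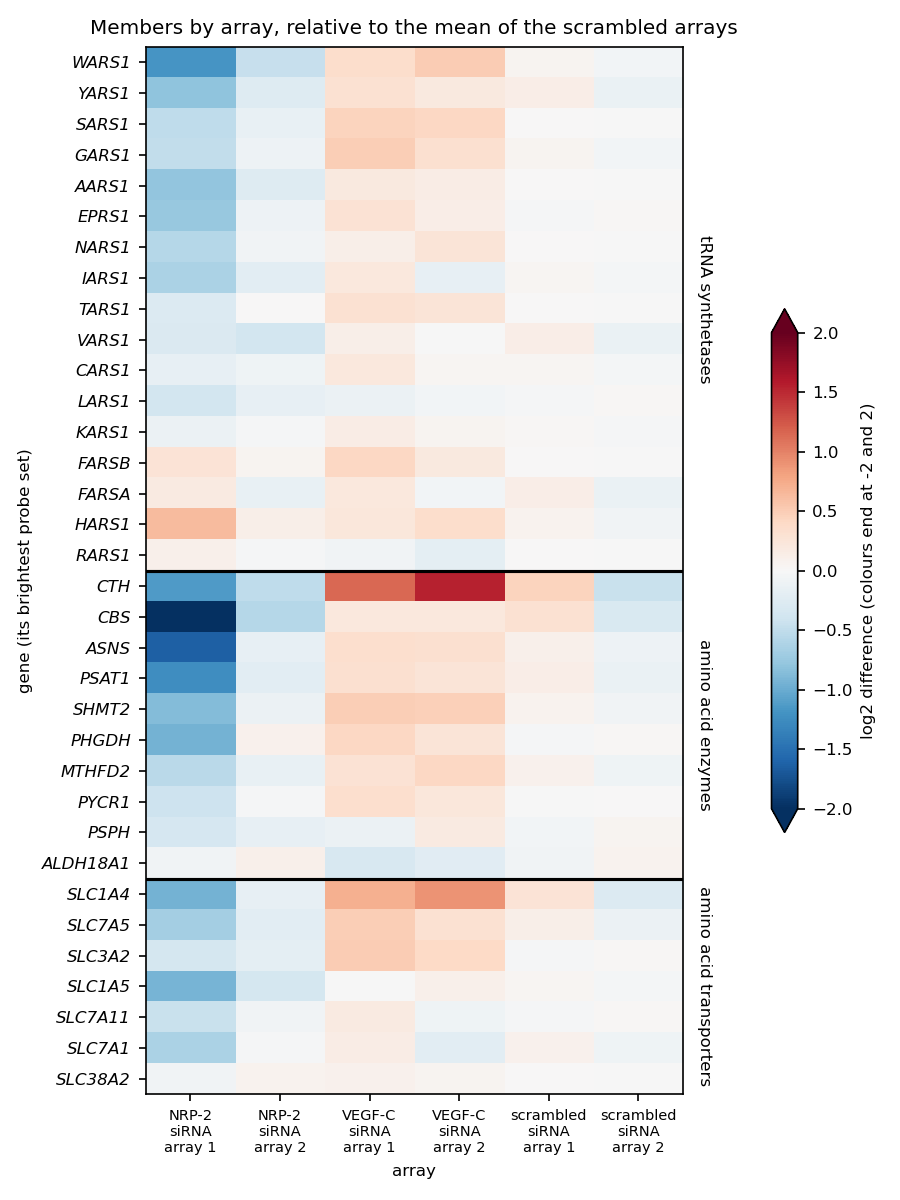
Each row is a measured member and each column an array; colour gives the log2 difference from the mean of the scrambled arrays, by class and ordered by the difference between NRP-2 and VEGF-C siRNA. The NRP-2 arrays are mostly blue, array 1 more deeply than array 2, and the VEGF-C arrays mostly red, with CTH, CBS and ASNS at the extremes and HARS1, RARS1 and ALDH18A1 against the pattern.

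The sizes differed by class. The median difference between NRP-2 and VEGF-C siRNA was -0.88 over 10 enzymes, -0.68 over 7 transporters and -0.41 over 17 synthetases, and the ranges ran from -2.16 to +0.29, from -1.36 to -0.07 and from -1.24 to +0.17. Differences between classes were not tested. The only members above 0 in this comparison were ALDH18A1 (+0.29), which starts proline and ornithine synthesis, and the arginyl and histidyl synthetases RARS1 (+0.17) and HARS1 (+0.08), none of them at an unadjusted p under 0.05.

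**Figure D2:**
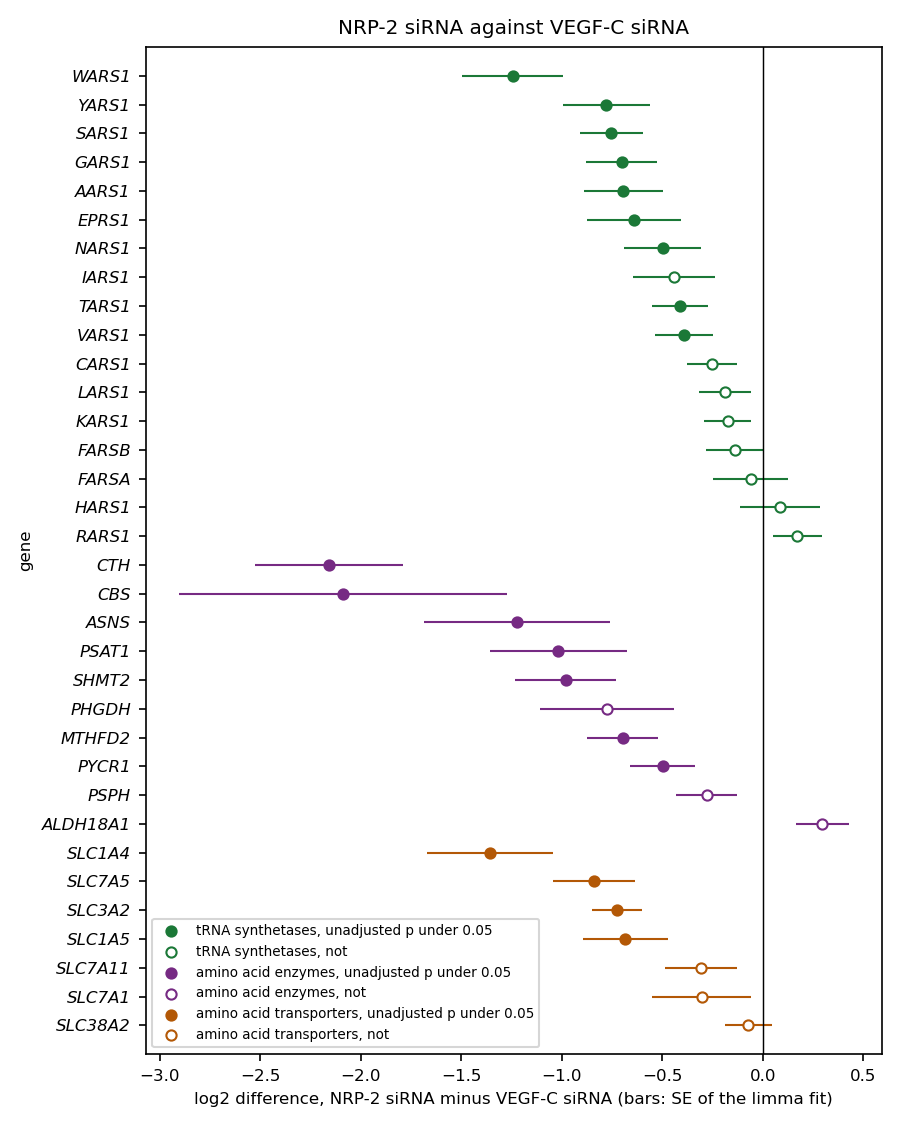
Points are log2 differences of group means, NRP-2 siRNA minus VEGF-C siRNA, and bars are standard errors from limma with 2 arrays per group. Filled points mark the 20 members at an unadjusted p under 0.05, all left of 0, from VARS1 (-0.39) to CTH (-2.16).

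The promoters of the members were searched for the core of the C/EBP-ATF response element, written as TGATGNAA with N for any base, on both strands of RefSeq windows from 250 bases before to 50 bases after a start (GRCh38.p14). A window was at hand for 30 of the 39 members, and 12 of these 30 (40%) held the letters in at least 1 window: 7 of 16 synthetases, 1 of 7 enzymes and 4 of 7 transporters. Among all genes with a window the share was 4.46% (1217 of 27305), and 2.83% among those tested on the arrays. The match was TGATGCAA in AARS1, CARS1, IARS1, MARS1, NARS1, TARS1, SLC1A4 and SLC1A5, TGATGAAA in GARS1, ASNS and SLC7A1, and TGATGTAA in SLC3A2. Stretches of 120 bases around the match are shown for members of each class, read on the strand of the gene, with the matching letters in capitals. They lie at chr7:97872409-97872528, minus strand (ASNS), chr16:70289634-70289753, minus strand (AARS1), chr7:30594758-30594877, plus strand (GARS1), chr9:92293698-92293817, minus strand (IARS1), chr2:64989280-64989399, plus strand (SLC1A4) and chr19:46784815-46784934, minus strand (SLC1A5).
ASNS: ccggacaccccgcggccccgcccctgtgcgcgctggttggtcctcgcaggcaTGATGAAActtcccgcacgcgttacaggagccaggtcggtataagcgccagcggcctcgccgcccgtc
AARS1: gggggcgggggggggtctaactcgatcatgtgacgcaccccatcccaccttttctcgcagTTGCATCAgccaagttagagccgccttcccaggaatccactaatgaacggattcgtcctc
GARS1: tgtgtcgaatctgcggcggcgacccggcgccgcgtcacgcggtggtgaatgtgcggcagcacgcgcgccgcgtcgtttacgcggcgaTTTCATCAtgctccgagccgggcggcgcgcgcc
IARS1: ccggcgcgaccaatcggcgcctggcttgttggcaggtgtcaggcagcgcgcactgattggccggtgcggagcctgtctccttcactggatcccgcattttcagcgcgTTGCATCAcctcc
SLC1A4: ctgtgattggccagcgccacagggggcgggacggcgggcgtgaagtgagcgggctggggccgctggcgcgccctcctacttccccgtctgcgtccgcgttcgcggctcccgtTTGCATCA
SLC1A5: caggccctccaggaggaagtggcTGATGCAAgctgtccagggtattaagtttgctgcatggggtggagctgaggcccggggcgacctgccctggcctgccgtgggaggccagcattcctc
In ASNS and SLC1A5 the capitals of these stretches read in the direction of the gene, and in the other 4 they are the reverse complement. Counted from the start, the match begins at -68 in ASNS, -187 in AARS1, -33 in GARS1, -13 in IARS1, -7 in SLC1A4 and -97 in SLC1A5. It belongs to 1 of 2 windows in ASNS, GARS1 and SLC1A4, to 1 of 3 in SLC1A5 and to the 1 window of AARS1 and IARS1. Of the matches not shown, those of CARS1 (from -2) and MARS1 (from -4) span the start. Those of TARS1, SLC7A1, NARS1 and SLC3A2 lie after it, beginning at 3, 8, 15 and 38.

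Members were also split by the letters, without a test of the difference. Between NRP-2 and VEGF-C siRNA the median was -0.68 over the 11 measured members with a match and -0.67 over the 16 without one, and -0.05 over all 260 tested genes with a match. For NRP-2 against scrambled siRNA the medians were -0.33 and -0.34, with 11 of 11 and 11 of 16 below 0. For VEGF-C against scrambled siRNA they were +0.18 with a match and +0.29 without. CTH, WARS1, PSAT1 and MTHFD2, which showed some of the larger differences, held no match in these windows, which says only that the letters are not there.

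Among the synthetases the tryptophanyl enzyme WARS1 differed most. It stood at log2 9.84 and 10.57 on the NRP-2 siRNA arrays, 11.37 and 11.53 on the VEGF-C siRNA arrays, and 11.07 and 10.98 on the scrambled arrays. The 3 groups did not overlap, with NRP-2 arrays lowest and VEGF-C arrays highest. Between NRP-2 and VEGF-C siRNA it was 2.37-fold lower (-1.24, SE 0.25, limma's adjusted p = 0.127), and its second probe set gave -1.67. SARS1, the seryl enzyme, stood at 12.01 and 12.36 on the NRP-2 siRNA arrays, 12.96 and 12.92 on the VEGF-C siRNA arrays, and 12.52 and 12.50 on the scrambled arrays. The scrambled arrays nearly coincided and lay between the other groups, and the difference between NRP-2 and VEGF-C siRNA was -0.75 (SE 0.16, limma's adjusted p = 0.127). GARS1, the glycyl enzyme, which serves cytosol and mitochondria, stood at 13.24 and 13.63 on the NRP-2 siRNA arrays, 14.22 and 14.06 on the VEGF-C siRNA arrays, and 13.80 and 13.67 on the scrambled arrays. NRP-2 array 2 was just below scrambled array 2, while both VEGF-C arrays were above all others, a difference of -0.70 (SE 0.17) between the targeting siRNAs.

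The tyrosyl enzyme YARS1 stood at 10.96 and 11.50 on the NRP-2 siRNA arrays, 12.06 and 11.95 on the VEGF-C siRNA arrays, and 11.89 and 11.62 on the scrambled arrays. NRP-2 array 1 was far below the rest and array 2 just below scrambled array 2, and the difference from VEGF-C siRNA was -0.78, SE 0.22. AARS1, the alanyl enzyme with the matching letters shown above, stood at 10.80 and 11.33 on the NRP-2 siRNA arrays, 11.78 and 11.74 on the VEGF-C siRNA arrays, and 11.59 and 11.58 on the scrambled arrays. Its groups did not overlap, and the difference was -0.70, SE 0.20. EPRS1, which joins both glutamate and proline to their tRNAs, was at -0.64 with -0.72 and -1.18 for its other probe sets, and NARS1 (asparaginyl, -0.50), TARS1 (threonyl, -0.41) and VARS1 (valyl, -0.39) were also at an unadjusted p under 0.05. The isoleucyl enzyme IARS1 was at -0.44, CARS1 (cysteinyl) at -0.25, LARS1 (leucyl) at -0.19 and KARS1 (lysyl) at -0.18, without passing it. FARSA and FARSB, the subunits of the phenylalanyl enzyme, were at -0.06 and -0.14. Other probe sets past the filter gave -0.36 and -0.69 for CARS1, -0.29 for KARS1, -0.34 for FARSA and -0.01 for FARSB.

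CTH, which releases cysteine from cystathionine, differed most between NRP-2 and VEGF-C siRNA among the 34 members. It stood at 7.46 and 8.08 on the NRP-2 siRNA arrays, 9.73 and 10.13 on the VEGF-C siRNA arrays, and 9.03 and 8.14 on the scrambled arrays. Both VEGF-C arrays were above and both NRP-2 arrays below the scrambled ones, which themselves were 0.90 apart. NRP-2 siRNA gave 4.47-fold less CTH than VEGF-C siRNA (-2.16, SE 0.37, limma's adjusted p = 0.116), and the second probe set gave -2.51. CBS, which makes cystathionine, was at -2.09 (SE 0.82), but it was dim, and NRP-2 array 1 (2.10) lay below the median of the array, with array 2 at 4.70 and the other arrays between 4.97 and 5.57. Without NRP-2 array 1 the CBS difference was -0.79.

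The serine and glycine route was represented from its first step to the mitochondrial folate enzymes. SHMT2, which turns serine into glycine in mitochondria, stood at 11.53 and 12.26 on the NRP-2 siRNA arrays, 12.88 and 12.87 on the VEGF-C siRNA arrays, and 12.46 and 12.31 on the scrambled arrays. The VEGF-C arrays agreed within 0.01 and were above the rest, and the difference between NRP-2 and VEGF-C siRNA was -0.98, SE 0.25 (-1.26 and -1.52 for the other probe sets). PSAT1, the second step of serine synthesis, stood at 12.17 and 13.20 on the NRP-2 siRNA arrays, 13.73 and 13.67 on the VEGF-C siRNA arrays, and 13.54 and 13.28 on the scrambled arrays. NRP-2 array 1 was 1.04 below array 2, and the difference was -1.02, SE 0.34. MTHFD2, a mitochondrial folate enzyme, stood at 13.86 and 14.26 on the NRP-2 siRNA arrays, 14.69 and 14.83 on the VEGF-C siRNA arrays, and 14.50 and 14.32 on the scrambled arrays. Its NRP-2 arrays were the lowest and its VEGF-C arrays the highest (-0.70, SE 0.18, limma's adjusted p = 0.154). PHGDH, the first step of serine synthesis, was at -0.77 and PSPH, the last, at -0.28, neither at an unadjusted p under 0.05. The other PSPH probe sets gave -0.55 and -0.53. PHGDH was lowest on NRP-2 array 1 (10.04), while NRP-2 array 2 (11.07) was above both scrambled arrays (10.96 and 11.01).

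ASNS, asparagine synthetase, is a commonly used readout of ATF4. It stood at 12.40 and 13.87 on the NRP-2 siRNA arrays, 14.37 and 14.35 on the VEGF-C siRNA arrays, and 14.14 and 13.93 on the scrambled arrays. NRP-2 array 1 was 1.47 below NRP-2 array 2, while array 2 was just below scrambled array 2. The difference between NRP-2 and VEGF-C siRNA was -1.22, SE 0.46, and it was -0.49 without NRP-2 array 1. PYCR1, the last step of proline synthesis, stood at 8.07 and 8.45 on the NRP-2 siRNA arrays, 8.82 and 8.70 on the VEGF-C siRNA arrays, and 8.47 and 8.48 on the scrambled arrays. NRP-2 array 2 was level with the scrambled arrays and VEGF-C arrays were above them (-0.50, SE 0.16).

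SLC3A2, the heavy chain shared by the transporters SLC7A5 and SLC7A11, kept its arrays close within each group. It stood at 10.82 and 10.97 on the NRP-2 siRNA arrays, 11.68 and 11.57 on the VEGF-C siRNA arrays, and 11.15 and 11.18 on the scrambled arrays. Groups did not overlap, arrays of a group lay within 0.15 of each other, and NRP-2 siRNA gave 1.65-fold less than VEGF-C siRNA (-0.73, SE 0.12, limma's adjusted p = 0.116). SLC7A5, its light chain for large neutral amino acids, stood at 12.04 and 12.51 on the NRP-2 siRNA arrays, 13.21 and 13.02 on the VEGF-C siRNA arrays, and 12.84 and 12.60 on the scrambled arrays. The order of groups was as for SLC3A2, with a difference of -0.84, SE 0.20. SLC7A11, the light chain that imports cystine, stood at 12.15 and 12.52 on the NRP-2 siRNA arrays, 12.79 and 12.51 on the VEGF-C siRNA arrays, and 12.58 and 12.63 on the scrambled arrays. Here NRP-2 array 1 was lowest, NRP-2 array 2 and VEGF-C array 2 were level, and the difference of -0.31 did not reach an unadjusted p under 0.05. The other SLC7A11 probe sets gave -0.27 and -0.93. The last was dimmer (mean 4.98), with both NRP-2 arrays (4.16 and 4.66) below the rest.

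The neutral amino acid exchangers of the SLC1 family also differed. SLC1A4, a carrier of alanine, serine and cysteine, stood at 8.72 and 9.50 on the NRP-2 siRNA arrays, 10.38 and 10.56 on the VEGF-C siRNA arrays, and 9.94 and 9.39 on the scrambled arrays. VEGF-C arrays were above all others, and NRP-2 array 2 lay between the scrambled arrays. SLC1A4 was 2.57-fold lower with NRP-2 than with VEGF-C siRNA (-1.36, SE 0.31), with -1.32 and -1.23 for the other probe sets past the filter. SLC1A5, a glutamine carrier, stood at 8.44 and 9.03 on the NRP-2 siRNA arrays, 9.36 and 9.47 on the VEGF-C siRNA arrays, and 9.41 and 9.33 on the scrambled arrays. Both NRP-2 arrays were below every other array, while VEGF-C and scrambled arrays overlapped (-0.68, SE 0.21). SLC7A1, for cationic amino acids, was at -0.30 and SLC38A2, a sodium-coupled carrier of neutral amino acids, at -0.07. SLC38A2 stayed between 14.64 and 14.80 on the 6 arrays.

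**Figure D3:**
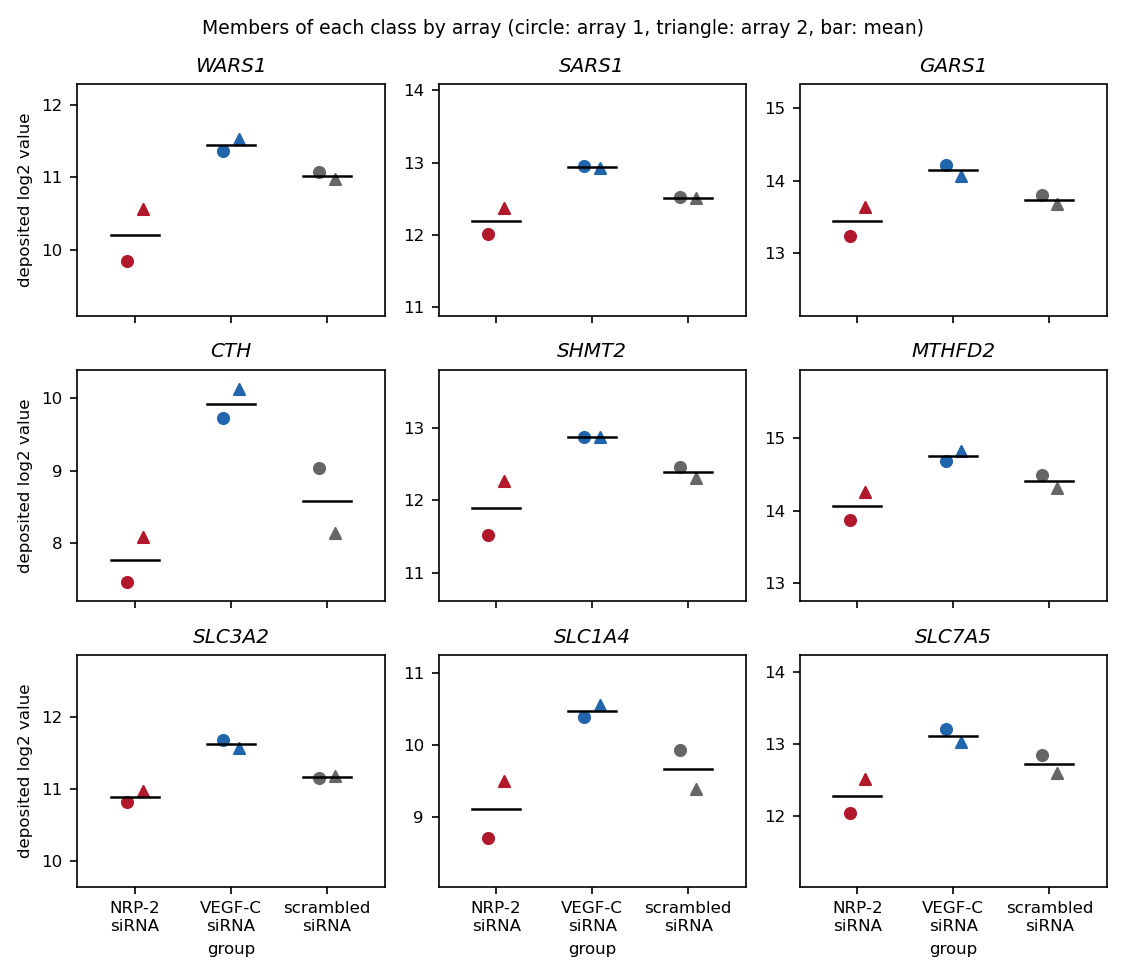
Deposited log2 values by array for 3 members of each class, with circles for array 1, triangles for array 2, bars for group means, and a span of the same height in every panel. NRP-2 means are lowest and VEGF-C means highest in all 9 panels, and NRP-2 array 1 lies below array 2 in each.

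The other probe sets of the members were read as well. Of the 62 member probe sets with a mean of at least log2 4, 57 were lower and 5 higher with NRP-2 siRNA than with VEGF-C siRNA. Of the 18 genes with several such probe sets, 17 had a single sign over all of them. The exception was LARS1, with -0.19 for the brightest and -0.51, +0.53 and -0.62 for the others. A single sign held for 14 of the 18 genes for NRP-2 against scrambled siRNA (not FARSA, FARSB, LARS1 and SLC38A2) and for 13 for VEGF-C against scrambled siRNA (not FARSB, LARS1, PSPH, SLC7A1 and SLC7A11).

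The comparison of NRP-2 with scrambled siRNA asks how these genes stand when the co-receptor is targeted. The difference was below 0 for 29 of 34 members, with a median of -0.33 against +0.01 over all genes. WARS1 (-0.82, SE 0.25), AARS1 (-0.52, SE 0.20) and SLC1A5 (-0.64, SE 0.21) were the 3 members at an unadjusted p under 0.05, all lower, where 6.85% of all genes were lower and 6.43% higher, so 3 of 34 is near the background. limma called 0 of 34 members and 0% of all genes (lowest adjusted p of a member 0.301). Both NRP-2 arrays lay below both scrambled arrays for 24 of 34 members and 24.4% of all genes, and above them for 2 members (25.3% of all genes), FARSB (+0.17) and HARS1 (+0.37). CBS (-1.87), ASNS (-0.89), CTH (-0.82) and PSAT1 (-0.72) had the larger differences from scrambled siRNA among the enzymes, with standard errors of 0.82, 0.46, 0.37 and 0.34. Without NRP-2 array 1 they were -0.57, -0.16, -0.51 and -0.20, and without NRP-2 array 2 -3.18, -1.63, -1.13 and -1.24. CTH was at -0.37 without scrambled array 1 and -1.26 without scrambled array 2, and the value of CBS includes an NRP-2 array below the array median. The class medians were -0.46 for enzymes, -0.30 for synthetases and -0.33 for transporters.

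The NRP-2 arrays differed from each other, in these genes and over all genes. Over all genes tested, the highest correlation of NRP-2 array 1 with any other array was 0.982, against 0.989 to 0.991 for the other arrays. NRP-2 array 2 (0.991) was therefore closer to an array of another group than to NRP-2 array 1. Array 1 was the lowest of the 6 arrays for 28 of 34 members, and for 22.7% of all genes. Relative to the mean of the scrambled arrays, the median member stood at -0.52 in array 1 and at -0.15 in array 2. Array 2 was still below both scrambled arrays for 26 of 34 members, against 35.5% of all genes. Without NRP-2 array 2, 21 members passed an unadjusted p under 0.05 against scrambled siRNA, 20 lower and 1 higher, where 11.6% of all genes were lower and 12.7% higher, and the median was -0.52. The count was 0 without scrambled array 1 (2.9% of all genes lower) and 1 without scrambled array 2 (3.59%), and leaving out VEGF-C array 1 or 2 also gave 1 (6.41% in both fits). Without NRP-2 array 1, 1 member passed it (3.91% of all genes lower) and the median was -0.15. Against VEGF-C siRNA, 15 members were lower at an unadjusted p under 0.05 without array 1 (median -0.31, 7.41% of all genes lower) and 23 without array 2 (median -0.78, 10.6%). They numbered 9 without VEGF-C array 1 and 11 without VEGF-C array 2, all lower, against 6.29% and 6.06% of all genes. The NRP-2 arrays also differed in the G2 and mitosis mean and in the actin difference given above, while their GAPDH differences were -0.03 and -0.07. The G2 and mitosis genes themselves had medians of -0.31 between NRP-2 and VEGF-C siRNA and +1.02 for NRP-2 against scrambled siRNA. When their mean entered the fit as a covariate, 20 members were lower at an unadjusted p under 0.05 between NRP-2 and VEGF-C siRNA (8.53% of all genes), with a median of -0.62. For NRP-2 against scrambled siRNA the covariate left 1 member (4.1% of all genes lower). The G2 and mitosis mean also differed between the groups, and this fit has fewer residual degrees of freedom. The part of the cell cycle therefore cannot be read from these counts and was not tested. The part of RNA quality was not tested.

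The comparison of VEGF-C with scrambled siRNA asks the same for the ligand, and it shares its scrambled arrays with the comparison above. Here the difference was above 0 for 30 of 34 members, with a median of +0.23 against -0.00443 over all genes. CTH (+1.34, SE 0.37, 2.54-fold), SLC1A4 (+0.81, SE 0.31), SLC3A2 (+0.45, SE 0.12) and SARS1 (+0.43, SE 0.16) were at an unadjusted p under 0.05, all higher, against 6.95% of all genes higher and 7.8% lower. limma called 0 of 34 members and 0% of all genes (lowest adjusted p of a member 0.251). Both VEGF-C arrays lay above both scrambled arrays for 23 of 34 members, against 26.8% of all genes, and below them for 3 (26.6% of all genes), LARS1 (-0.08), RARS1 (-0.13) and ALDH18A1 (-0.27). The class medians were +0.31 for enzymes, +0.18 for synthetases and +0.07 for transporters, the last of which was +0.18 without VEGF-C array 2. The VEGF-C arrays were alike, at +0.26 and +0.21 for the median member relative to the mean of the scrambled arrays. Without scrambled array 2, 0 members passed an unadjusted p under 0.05 (2.78% of all genes higher) and the median was +0.17. CTH was then at +0.89. The count was 2 without scrambled array 1 (4.87% of all genes higher), 1 without VEGF-C array 1 (5.14%), 1 without VEGF-C array 2 (4.89%) and 8 without either NRP-2 array (8.8%). All 29 G2 and mitosis genes measured were above 0 in this comparison (median +1.35), and with their mean as covariate 0 members were at an unadjusted p under 0.05 (3.59% of all genes higher). The limits of this covariate given above hold here too.

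**Figure D4:**
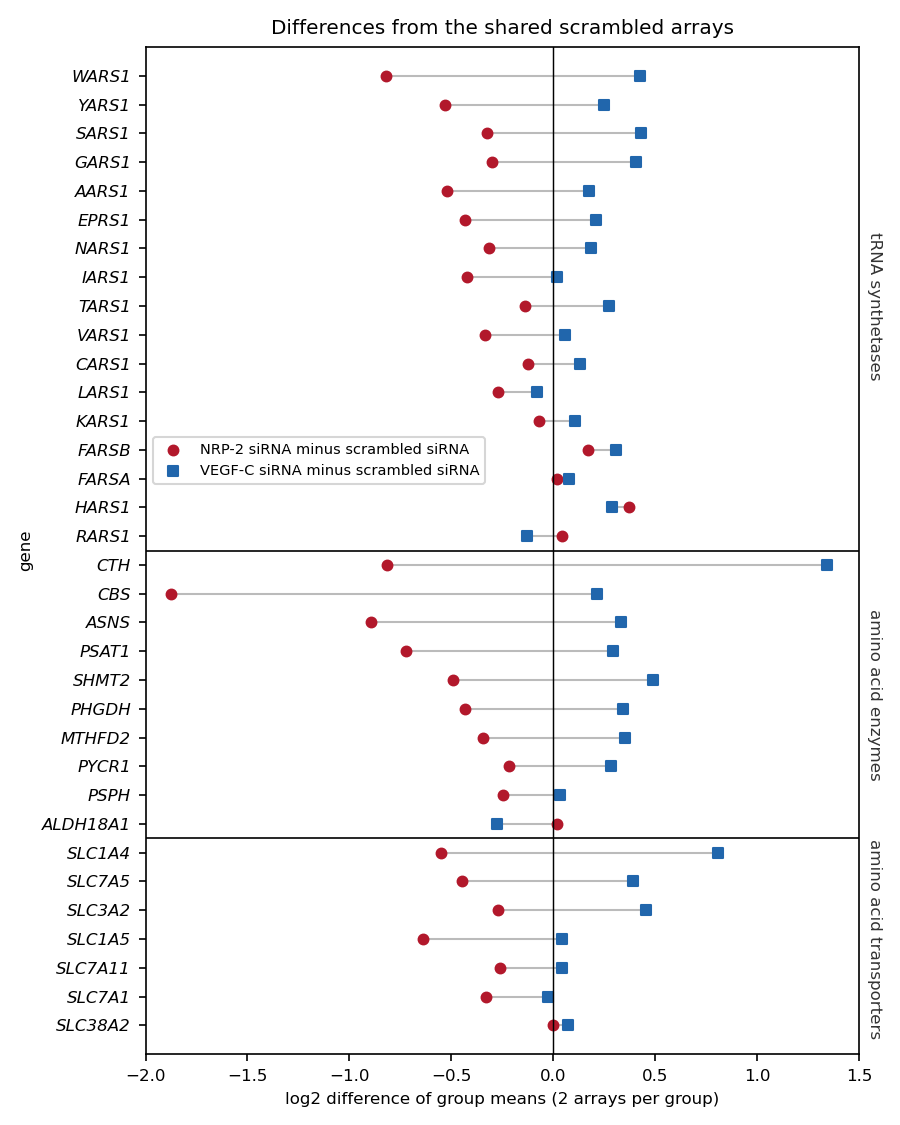
For each measured member, circles give the log2 difference of NRP-2 siRNA from scrambled siRNA and squares that of VEGF-C siRNA; both use the same 2 scrambled arrays. Circles lie left of squares for 31 of 34 genes, and most pairs straddle 0, as for CTH (-0.82 and +1.34) and CARS1 (-0.12 and +0.13).

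Other genes of the same processes were read from lists outside the 39. Of 17 mitochondrial tRNA synthetases 14 passed the filter, and the median difference between NRP-2 and VEGF-C siRNA was -0.06, with 9 below 0, 1 lower at an unadjusted p under 0.05 (WARS2, mitochondrial tryptophanyl, -0.41) and 1 higher (FARS2, mitochondrial phenylalanyl, +0.39). AIMP1, a scaffold of the cytosolic multi-synthetase complex and the measured member of a list of 4 partners, stood at 11.06 and 11.07 on the NRP-2 siRNA arrays, 11.48 and 11.46 on the VEGF-C siRNA arrays, and 11.23 and 11.16 on the scrambled arrays. It followed the order of the synthetases, with -0.40, SE 0.11. Of 23 other enzymes of amino acid and methyl group metabolism 14 passed the filter, with a median of +0.01, 2 lower and 1 higher at an unadjusted p under 0.05. Between NRP-2 and VEGF-C siRNA, 8.66% of all genes were lower and 9.54% higher at it, to be read beside the counts of these lists. OAT, which links ornithine to proline, was at +0.52 in this comparison, and ASS1, which uses citrulline to make arginine, at -0.54 for NRP-2 against scrambled siRNA and -0.56 for VEGF-C against scrambled siRNA.

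Transporters outside the list went both ways. Of 20 listed 12 passed the filter, with a median of -0.01 between NRP-2 and VEGF-C siRNA. At an unadjusted p under 0.05, 3 were lower and 3 higher, against 8.66% of all genes lower and 9.54% higher. SLC43A1, a carrier of branched-chain amino acids, stood at 6.73 and 7.40 on the NRP-2 siRNA arrays, 8.19 and 8.67 on the VEGF-C siRNA arrays, and 7.76 and 7.59 on the scrambled arrays. Its order was that of the members (-1.37, SE 0.28). SLC1A1, a glutamate carrier of the same family as SLC1A4 and SLC1A5, stood at 10.37 and 10.79 on the NRP-2 siRNA arrays, 9.13 and 9.27 on the VEGF-C siRNA arrays, and 9.77 and 10.44 on the scrambled arrays. It ran the other way, with both VEGF-C arrays lowest (+1.38, SE 0.27).

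A list of regulators and downstream genes of the integrated stress response was read beside the members. All 19 listed passed the filter, and 13 were below 0 between NRP-2 and VEGF-C siRNA (median -0.45). Of these, 9 were at an unadjusted p under 0.05, and 0 genes were higher at it, against 8.66% of all genes lower and 9.54% higher. For NRP-2 against scrambled siRNA the list median was -0.16, with 0 genes at it (6.85% of all genes lower, 6.43% higher). For VEGF-C against scrambled siRNA the median was +0.33, with 4 higher and 0 lower (6.95% of all genes higher, 7.8% lower). The 6 above 0 between NRP-2 and VEGF-C siRNA included the eIF2 kinases EIF2AK1 (+0.09), EIF2AK2 (+0.20), EIF2AK3 (+0.02) and EIF2AK4 (+0.03). Against scrambled siRNA, NRP-2 and VEGF-C siRNA gave +0.57 and +0.55 for EIF2AK3 and -0.28 and -0.32 for EIF2AK4. They gave -0.28 and -0.49 for EIF2AK2 and -0.07 and -0.17 for EIF2AK1. None of these kinase differences was at an unadjusted p under 0.05. ATF4 itself stood at 13.86 and 14.19 on the NRP-2 siRNA arrays, 14.49 and 14.37 on the VEGF-C siRNA arrays, and 14.14 and 14.23 on the scrambled arrays. Its differences were -0.40 between NRP-2 and VEGF-C siRNA, -0.16 and +0.25 for NRP-2 and VEGF-C siRNA against scrambled siRNA, and ATF4 protein was not measured. PPP1R15A, a phosphatase subunit that reverses eIF2 phosphorylation, stood at 7.07 and 7.27 on the NRP-2 siRNA arrays, 8.38 and 8.30 on the VEGF-C siRNA arrays, and 7.79 and 7.39 on the scrambled arrays. Groups did not overlap (-1.17, SE 0.18, limma's adjusted p = 0.116). DDIT3, a transcription factor induced by ATF4, stood at 8.97 and 9.74 on the NRP-2 siRNA arrays, 10.46 and 10.74 on the VEGF-C siRNA arrays, and 9.88 and 10.07 on the scrambled arrays. The VEGF-C arrays were the highest and NRP-2 arrays the lowest (-1.24, SE 0.28). limma called 0 genes of these lists in any of the 3 comparisons.

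**Figure D5:**
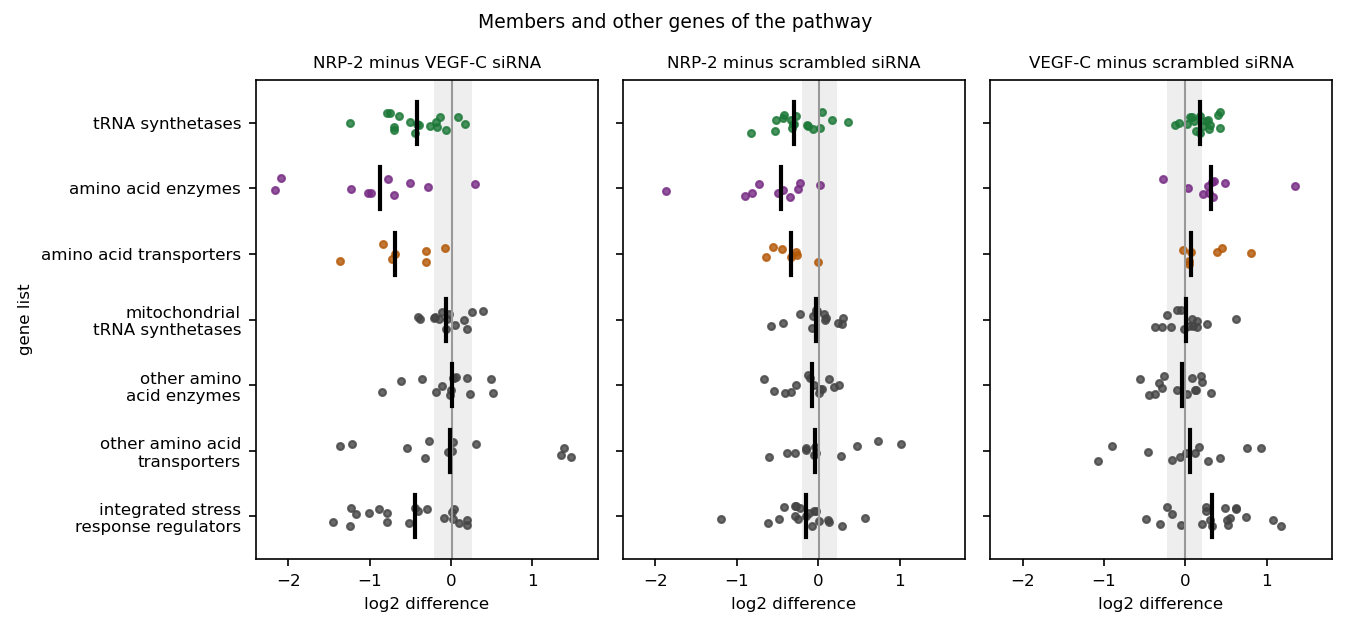
Points are genes and bars list medians of the log2 difference in each of the 3 comparisons; the grey line and band mark the median and middle range (quartiles) of all 11131 genes. In the first panel the 3 classes of members and the stress response list have medians left of the band, between -0.88 and -0.41. That list is labelled regulators but also holds downstream genes. The mitochondrial synthetases, other enzymes and other transporters centre near 0.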

How the data were processed

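Total RNA (6 ug) was labelled with biotin and hybridised to 6 Affymetrix HG-U133 Plus 2.0 arrays. The authors deposited a log2 value for each probe set. The submitters' processing notes name Partek and GCRMA, and the sources used here give no version. GCRMA corrects background by probe sequence and normalizes between arrays, which can alter differences of dim genes. Precision is limited by how few arrays there are. Of 54675 probe sets, 41091 had 1 gene in the platform annotation of 2016. Each of 11131 genes was represented by its brightest probe set with a mean of at least log2 4. The arrays, grouped by their labels, were fitted together in limma 3.58.1 under R 4.3.3 (lmFit, eBayes, two-sided tests, no block). The code was tested on simulated data. Those genes varied independently, with spreads drawn from limma's own fit, so that run cannot show how the test does on genes that vary together. Calls required an adjusted p (Benjamini-Hochberg, all genes tested) under 0.05. A count at an unadjusted p under 0.05 is no call. SE is the standard error of the fit. Per-array values are given for the 5 synthetases, 5 enzymes and 4 transporters with the smallest p over the 3 comparisons and for ASNS, CTH, WARS1 and SLC7A11. From each further list the 2 genes with the smallest p are named, with ATF4, the eIF2 kinases, VEGFC and NRP2. Members and lists were chosen with earlier results of these data known. Alternatives were the replicate block, filters, probe set summary, scaling, variance trend, a G2 and mitosis covariate and leaving out each array.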

Additional observations from a re-analysis of the deposited data

How the results depend on the processing

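The median over members and over each class kept its sign in all 3 comparisons under every alternative run. The replicate block, the variance trend and leaving out an array of the group not compared cannot move a difference, so these do not bear on the sign. With 1 array left out, the number of members at an unadjusted p under 0.05 ran from 9 to 23 for NRP-2 against VEGF-C siRNA, 0 to 21 for NRP-2 against scrambled siRNA and 0 to 8 for VEGF-C against scrambled siRNA. In the same fits the medians for NRP-2 against VEGF-C siRNA ran from -0.78 to -0.31 over all members, -0.55 to -0.25 over synthetases, -1.32 to -0.49 over enzymes and -0.80 to -0.39 over transporters. For NRP-2 against scrambled siRNA they ran from -0.52 to -0.15, -0.37 to -0.10, -0.90 to -0.15 and -0.64 to -0.16. For VEGF-C against scrambled siRNA they ran from +0.17 to +0.28, +0.15 to +0.21, +0.24 to +0.43 and +0.07 to +0.18. The count of 3 members for NRP-2 against scrambled siRNA was 7 when a gene's probe sets were averaged (7.41% of all genes lower), 5 when no filter on low values was set (4.95%), 5 with a variance trend (7.02%) and 1 when the G2 and mitosis mean entered as a covariate (4.1%), which is also a fit with fewer residual degrees of freedom. That covariate gave 0 in place of 4 for VEGF-C against scrambled siRNA and left 20 for NRP-2 against VEGF-C siRNA, where the median was -0.62. With no low-value filter limma called 1 gene in place of 0, NWD2, for VEGF-C against scrambled siRNA (+2.14, adjusted p = 0.0439) and for NRP-2 against VEGF-C siRNA (-2.23, 0.0374), named after its values were seen, with a mean of 3.35. With 1 array left out, the sign turned in at least 1 fit for 3 of 34 members for NRP-2 against VEGF-C siRNA (FARSA, HARS1 and SLC7A1), 6 for NRP-2 against scrambled siRNA (ALDH18A1, FARSA, PHGDH, RARS1, SLC38A2 and TARS1) and 8 for VEGF-C against scrambled siRNA (CBS, FARSA, IARS1, PSPH, SLC1A5, SLC7A1, SLC7A11 and VARS1). Of these, PHGDH went to +0.08 for NRP-2 against scrambled siRNA without NRP-2 array 1 (all arrays -0.43). For VEGF-C against scrambled siRNA SLC7A11 (+0.05) ran from -0.093 without VEGF-C array 1 to 0.184 without VEGF-C array 2, and SLC1A5 (+0.04) from -0.0080 without VEGF-C array 2 to 0.097 without VEGF-C array 1. The cause of these changes was not tested. The replicate numbers of the labels are shared by the groups, but nothing says that they mark a shared culture or day, and with 2 numbers the pairing could not be established. Differences between array 1 and array 2 over all genes correlated at 0.58 between scrambled and NRP-2 siRNA. They correlated at 0.11 between scrambled and VEGF-C siRNA and at 0.12 between VEGF-C and NRP-2 siRNA. Over the members alone these correlations were -0.42, -0.31 and 0.12. With the replicate number as a block, 20, 3 and 3 members were at an unadjusted p under 0.05 (NRP-2 against VEGF-C, NRP-2 against scrambled and VEGF-C against scrambled siRNA), beside 9.46% and 7.69% of all genes lower and 8.89% higher. The medians could not change in this fit, because each group holds both replicate numbers.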
